A study of Mus musculus with 12 samples.

Results

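This report describes 10 genes of peroxide and superoxide defence in the colonic epithelium of mice with and without Tfeb, a transcription factor of the lysosome and autophagy programme. The genes were chosen by name, with earlier results of these data known, and are the peroxiredoxins Prdx1 to Prdx6, the superoxide dismutases Sod1 and Sod2, catalase (Cat) and thioredoxin (Txn1). All 10 were found among the 47632 genes of each of the 3 expression tables. Colonic epithelial cells came from C57/BL6 animals in 6 groups of 2, which makes 12 animals. Every animal carried the floxed Tfeb allele, Tfeb flox/flox. The Tfeb dIEC animals also carried 1 copy of a Cre recombinase driven by the villin promoter, which is active in the epithelium of the intestine and not in the other cells of the gut wall, and the Tfeb flox/flox animals without Cre were the controls (control animals). The groups were untreated animals (Day 0, aged 12 and 10 weeks) and animals given dextran sodium sulfate (DSS), an agent in the drinking water that injures the colonic epithelium, which were taken on Day 4 (12 weeks) or on Day 11 after a period on plain water (10 weeks).

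Superoxide, which leaks from mitochondrial respiration and is made on purpose by NADPH oxidases, is converted to hydrogen peroxide by superoxide dismutases. Hydrogen peroxide is then removed by catalase, by glutathione peroxidases and by peroxiredoxins, whose catalytic cysteine is oxidised by the peroxide. Thioredoxin returns most peroxiredoxins to the reduced state and is itself reduced by thioredoxin reductase with electrons from NADPH. The colonic epithelium lies against a dense microbiota and makes peroxide at its own surface, so these enzymes are among its usual defences. They work in different places: Prdx1, Prdx2 and Prdx6, Sod1 and Txn1 act mainly in the cytosol, Prdx3 and Sod2 in mitochondria, Prdx4 in the endoplasmic reticulum, Cat in peroxisomes, and Prdx5 in mitochondria, peroxisomes and the cytosol.

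The catalytic cysteine is what makes the 6 peroxiredoxins a family, and their coding sequences are alike around it. The stretches below run from 15 bases before to 15 bases after that codon in the longest coding transcript of each gene (GENCODE M21, mouse GRCm38), with the cysteine codon in capitals. For Txn1 the capitals mark the 2 cysteine codons that carry out the reduction.
Prdx1, codon 52: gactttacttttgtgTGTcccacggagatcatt
Prdx2, codon 51: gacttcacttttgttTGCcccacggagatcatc
Prdx3, codon 109: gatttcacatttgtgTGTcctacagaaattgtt
Prdx4, codon 127: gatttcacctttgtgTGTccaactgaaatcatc
Prdx5, codon 99: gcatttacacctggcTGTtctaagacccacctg
Prdx6, codon 47: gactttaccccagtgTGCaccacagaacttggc
Txn1, codon 32: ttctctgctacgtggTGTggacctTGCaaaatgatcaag
Prdx1 and Prdx2 shared 29 of these 33 bases and were the most alike pair, while Prdx5 shared between 14 and 16 with each of the other 5. The genes that resemble each other here did not have the same expression, as the values of Prdx1 and Prdx2 show.

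Expression was measured by sequencing full-length cDNA, and each table gives FPKM, mapped fragments scaled to transcript length and library size. There is 1 value per gene, genotype and day, made from both animals, so no spread between animals is given here. The authors' own test between genotypes, made from the replicates, was not used, and the values are described without a test. Differences are given on the log2(FPKM + 1) scale as Tfeb dIEC over Tfeb flox/flox, so a negative value is lower in Tfeb dIEC animals, and a gene is counted as lower or higher where it differed by at least 2-fold on that scale. Genes under 1 FPKM in both genotypes were left out, and all 10 members passed that filter on each day. The low values in the tables came in steps, which gave a rough number of fragments behind each value. Where a 95% interval of a ratio is printed, it is the exact interval from these estimated fragments and covers counting error only, not the differences between animals.

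Some features of the libraries touch every result here. Tfeb itself was listed at 0.901 FPKM in control and 0.185 in Tfeb dIEC animals on Day 0, at 1.08 and 0 on Day 4, and at 1.18 and 0 on Day 11. Both Day 0 values were under the filter of 1 FPKM, and the later ones lay near it or at 0. The tables of Day 4 and Day 11 were close to each other: 14.3% of the genes with values above 0 had identical FPKM in control animals and 10.2% in Tfeb dIEC animals, against none between Day 0 and Day 4. The 2 later days are therefore described side by side and Day 11 is not taken as a repeat of Day 4. All 7 epithelial markers were present in each group. The 8 immune markers summed to between 1.04 and 3.9985 FPKM per group, and the 7 stromal and endothelial markers to between 2.37 and 5.87. The summed FPKM of all genes was 1464717 in control and 820344 in Tfeb dIEC animals on Day 4, against 975316 and 973878 on Day 0. In bulk cells, fewer cells of a type and less RNA per cell cannot be told apart.

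More members passed 2-fold on Days 4 and 11 than on Day 0, and so did more of all genes. On Day 0, 2 of the 10 genes, Prdx5 and Txn1, were at least 2-fold lower in Tfeb dIEC animals and none was higher, where 16.1% of 9993 genes tested were lower and 13.5% higher. On Day 4, 4 genes were lower (Prdx2, Prdx5, Sod1 and Txn1) and 2 were higher (Prdx3 and Cat), where 26.1% of 9371 genes were lower and 25.6% higher. The same 4 and 2 genes were counted on Day 11, where 25.7% of 9365 genes were lower and 26.1% higher. For 10 genes these shares come to between 1 and 3 genes, so the members' counts were near the background of each day. The members had a median difference of -0.64 on Day 0, of -0.46 on Day 4 and of -0.45 on Day 11, where all genes tested had medians of 0.06, 0.06 and 0.08.

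**Figure D1:**
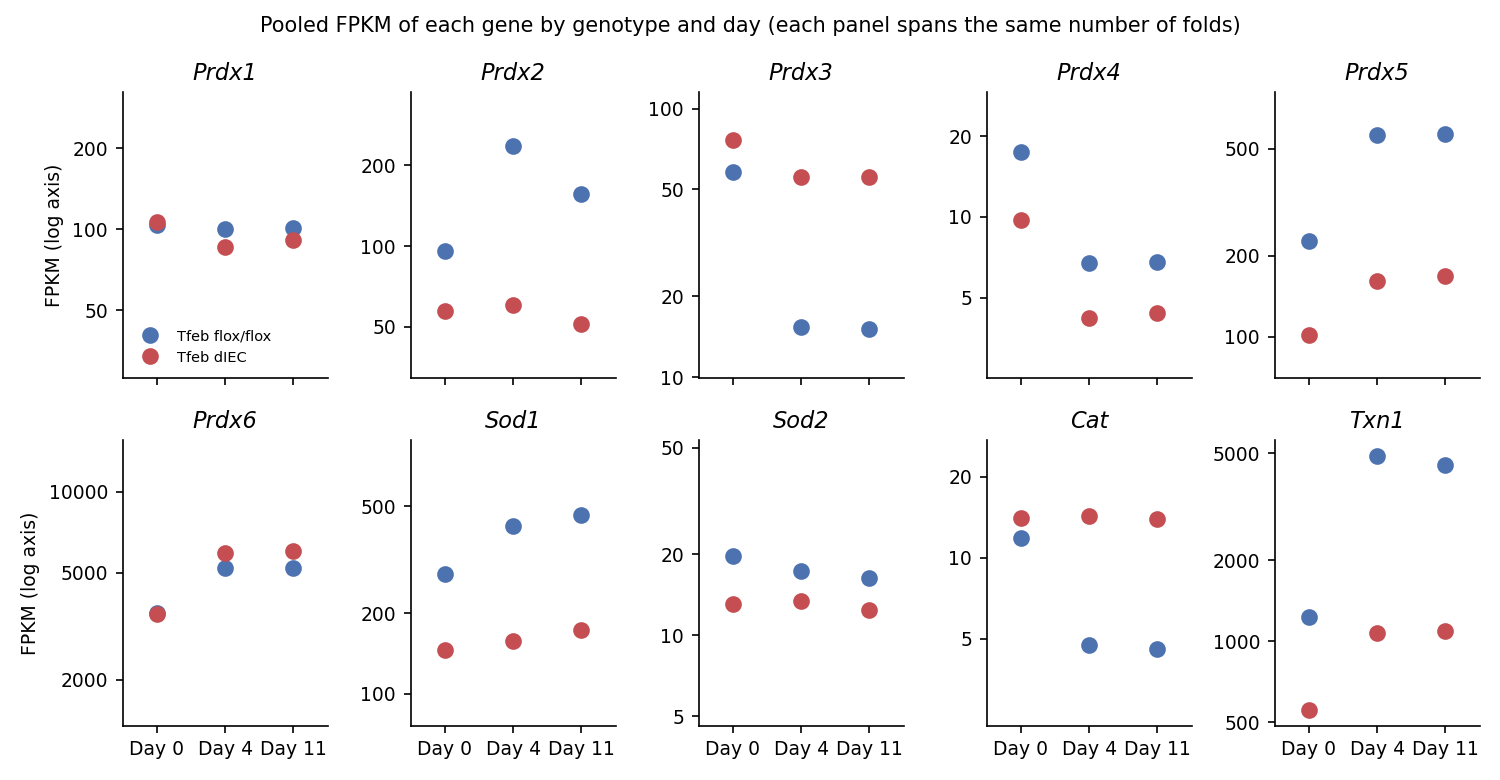
FPKM (log axis) of each gene on Day 0, Day 4 and Day 11 in Tfeb flox/flox (blue) and Tfeb dIEC (red) animals, 1 pooled value per point with no error known; every panel spans the same number of folds. The genotypes differ by at most 1.17-fold for Prdx1 and Prdx6 on all 3 days, Prdx2, Prdx5, Sod1 and Txn1 are lower in Tfeb dIEC animals, and Prdx3 and Cat are higher on Days 4 and 11.

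Txn1, the cytosolic thioredoxin, had the largest difference of the 10 genes on Days 4 and 11 on this scale, though not with the length trend subtracted or after division by the sums, where Prdx3 was among the genes that differed by more. Its FPKM was 1236 in control and 555 in Tfeb dIEC animals on Day 0, 4901 and 1073 on Day 4, and 4518 and 1094 on Day 11. The log2 difference was -1.15, -2.19 and -2.05 on these days. The level in Tfeb flox/flox animals was 3.97-fold higher on Day 4 than on Day 0, between tables that were scaled separately, and all 3 values of Tfeb dIEC animals were under the 3 values of the controls. On Day 4 the ratio of the genotypes was 0.219, with a counting interval of 0.209 to 0.229 from about 7033 and 2736 fragments. Genes of the same transcript length had a median difference of -0.60 on that day, so -1.59 remained beyond it.

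The processed pseudogene Txn-ps1 on chromosome 1 resembles the Txn1 coding sequence and was listed about as high as Txn1, at 1320 and 634 FPKM on Day 0, 4960 and 1197 on Day 4, and 4966 and 1213 on Day 11. Reads of near-identical copies can be split between them, and 97.5% of the 50-base sequences of Txn1 occur in no other gene. With FPKM times transcript length summed over both, the log2 difference was -1.13, -2.16 and -2.04 on the 3 days, and the Txn1 row carried 76.1% of the sum in Tfeb flox/flox animals on Day 0. The division of reads between the copies thus left the size of the difference nearly the same.

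Prdx1 and Prdx2 are the cytosolic peroxiredoxins that depend on thioredoxin, and they behaved differently. Prdx1 had 104 FPKM in control and 106 in Tfeb dIEC animals on Day 0, 100 and 85.7 on Day 4, and 101 and 91.5 on Day 11, with log2 differences of 0.03, -0.23 and -0.15. Prdx2, also abundant in red blood cells, had 95.5 and 57.5 FPKM on Day 0, 236 and 60.6 on Day 4, and 156 and 51.4 on Day 11. The log2 difference of Prdx2 was -0.72, -1.94 and -1.58. Prdx2 stood at 0.918 of Prdx1 in Tfeb flox/flox animals on Day 0, at 2.35 times Prdx1 on Day 4 and at 1.54 times on Day 11, whereas in Tfeb dIEC animals it stayed at 0.543, 0.708 and 0.562 of Prdx1. With the pseudogene copies described next added to both, Prdx2 was below Prdx1 throughout, at 0.308, 0.884 and 0.603 of it in Tfeb flox/flox animals and 0.220, 0.275 and 0.237 in Tfeb dIEC animals. The counting interval of the Prdx2 ratio on Day 4 was 0.220 to 0.299. Genes of its length had a median difference of 0.03, so the difference of Prdx2 was not shared by transcripts of like size.

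Values of red blood cell markers and of genes that overlap or resemble Prdx2 are given beside it. The 5 markers of red blood cells and their precursors summed to 116 FPKM in control and 23.3 in Tfeb dIEC animals on Day 0, 31.2 and 7.24 on Day 4, and 31.6 and 7.30 on Day 11. Of the 4 that passed the filter, 4 were at least 2-fold lower on Day 0 and 3 on each later day. The shares of all genes that were lower were 16.1% on Day 0, 26.1% on Day 4 and 25.7% on Day 11. These 4 are globin genes with transcripts of 554 to 703 nt. Genes of about 596 nt had a median difference of -0.88 on Day 0 and -1.30 on Day 4. Alas2, which starts haem synthesis in the red cell lineage, was listed at 0 on Day 4. In Tfeb flox/flox animals the marker sum was lower on Day 4 than on Day 0 while Prdx2 was higher, and the part of these cells in the difference between genotypes was not tested. Prdx2 shares 154 exon bases with Rnaseh2a, which lies on the other strand and was listed at 2.83 to 8.44 FPKM. The pseudogene Tdpx-ps1 (19.8 to 34.4 FPKM) resembles Prdx2, and with its values added the log2 difference was -0.70, -1.74 and -1.34.

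Prdx1 is the member whose level is least certain. The processed pseudogenes Gm21399 and Gm7204, at 597 nt each, were listed above Prdx1, with 241.6 to 400.4 and 196 to 260.5 FPKM. The Prdx1 row carried between 29.5% and 37.3% of the FPKM times length of the 3 together. Summed over the 3, the log2 differences of the 3 days were -0.21, -0.05 and 0.01, so the small differences of Prdx1 changed sign on Days 0 and 11 with the treatment of the copies, and no direction is given for it.

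Prdx3, the mitochondrial peroxiredoxin, was the gene with the largest difference in the other direction. Its FPKM was 57.9 in control and 76.1 in Tfeb dIEC animals on Day 0, 15.4 and 55.4 on Day 4, and 15.1 and 55.4 on Day 11. The log2 difference was 0.39, 1.78 and 1.81. The control values of Days 4 and 11 were the low ones, and those of Tfeb dIEC animals lay much nearer to the level of Day 0. The ratio of the genotypes was 3.60 on Day 4, with a counting interval of 2.47 to 5.27 from about 34 and 215 fragments. All of its 50-base sequences were found in no other gene, and genes of its length had a median difference of 0.05 on Day 4, which left 1.74.

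Prdx5, which acts in mitochondria, peroxisomes and cytosol, was opposite to Prdx3. The FPKM of Prdx5 was 226 in control and 101 in Tfeb dIEC animals on Day 0, 561 and 162 on Day 4, and 567 and 169 on Day 11. Its log2 difference was -1.15, -1.79 and -1.74, so it was at least 2-fold lower on every day. Within a group, Prdx5 was 3.91 times Prdx3 in control and 1.33 times in Tfeb dIEC animals on Day 0, and 36.5 and 2.92 times on Day 4. The 2 mitochondrial peroxiredoxins therefore differed far less from each other in Tfeb dIEC animals. Transcripts as short as Prdx5 (median 755 nt) had a median difference of -0.57 on Day 0 and -1.05 on Day 4, and subtracting it left -0.58 and -0.74, under the 2-fold line. Prdx5 also shares 409 exon bases, 28.3% of its own, with Trmt112 on the other strand, which was listed at 0.714 to 4.92 FPKM, and the sources do not say that strand was used in counting.

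Prdx4, the peroxiredoxin of the endoplasmic reticulum, and Prdx6, which uses glutathione in place of thioredoxin, lay at the opposite ends of the family in level. Prdx6 had 3542 FPKM in control and 3497 in Tfeb dIEC animals on Day 0, 5203 and 5937 on Day 4, and 5191 and 6007 on Day 11, the highest row of the 10 genes in all 6 groups. Its log2 difference was -0.02, 0.19 and 0.21, and it made up 87.6% and 90.9% of the summed FPKM of the 6 peroxiredoxins on Day 0 and 85.0% and 94.2% on Day 4. Prdx4 had 17.5 and 9.72 FPKM on Day 0, 6.77 and 4.20 on Day 4, and 6.78 and 4.40 on Day 11. Its log2 difference was -0.79, -0.58 and -0.53, short of 2-fold on each day. On Days 4 and 11 it changed sign when the groups were divided by their sums (0.12 and 0.175) or the median of genes of like length was subtracted (0.06 and 0.08). About 9 and 10 fragments stood behind the Day 4 values, and the counting interval of the ratio, 0.228 to 1.74, holds 1, so at this depth a difference in Prdx4 on Day 4 was not detectable. Both genotypes had the lower Prdx4 values on the later days.

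Of the superoxide dismutases, the cytosolic form differed by more than the mitochondrial one, an order that turned with the length trend subtracted. Sod1, the copper and zinc enzyme of the cytosol, had 278 FPKM in control and 145 in Tfeb dIEC animals on Day 0, 422 and 158 on Day 4, and 462 and 173 on Day 11, with log2 differences of -0.93, -1.41 and -1.41. Sod2, the manganese enzyme of mitochondria, had 19.8 and 13.0 FPKM on Day 0, 17.3 and 13.4 on Day 4, and 16.4 and 12.4 on Day 11, with log2 differences of -0.57, -0.35 and -0.37. Both were lower in Tfeb dIEC animals on all 3 days, Sod2 by less than 2-fold and with the opposite sign on Days 4 and 11 (0.43 and 0.405) when each group was divided by its summed FPKM. Sod1 was 14.1 times Sod2 in control and 11.2 times in Tfeb dIEC animals on Day 0, and 24.4 and 11.8 times on Day 4. The difference of Sod1 was close to that of other short transcripts: genes of its length (641 nt) had medians of -0.78, -1.25 and -1.22, which left -0.15, -0.16 and -0.19, where Sod2 had -1.03, -0.69 and -0.76.

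The pseudogene Gm8566, which resembles Sod1, was listed at 253 and 167 FPKM on Day 0 and 351 and 150.3 on Day 4. Summed with it, Sod1 differed by -0.79, -1.34 and -1.35. The gene model of Sod2 in the tables is much shorter than that of GENCODE M21, so a value of Sod2 that rests on its length (5861 nt in M21) is uncertain.

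Cat, the peroxisomal catalase, was, in control animals, the lowest of the 10 genes throughout. It had 11.8 FPKM in control and 14.01 in Tfeb dIEC animals on Day 0, 4.73 and 14.2 on Day 4, and 4.57 and 13.96 on Day 11. The log2 difference was 0.23, 1.41 and 1.42. The 3 values of Tfeb dIEC animals were nearly level, and the controls were low on Days 4 and 11, as for Prdx3. The ratio on Day 4 was 3.01 with a counting interval of 1.63 to 6.20, from about 12 and 65 fragments. With a pseudocount of 5 in place of 1, the log2 difference was 0.98 on Day 4 and 0.99 on Day 11, just under 2-fold.

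**Figure D2:**
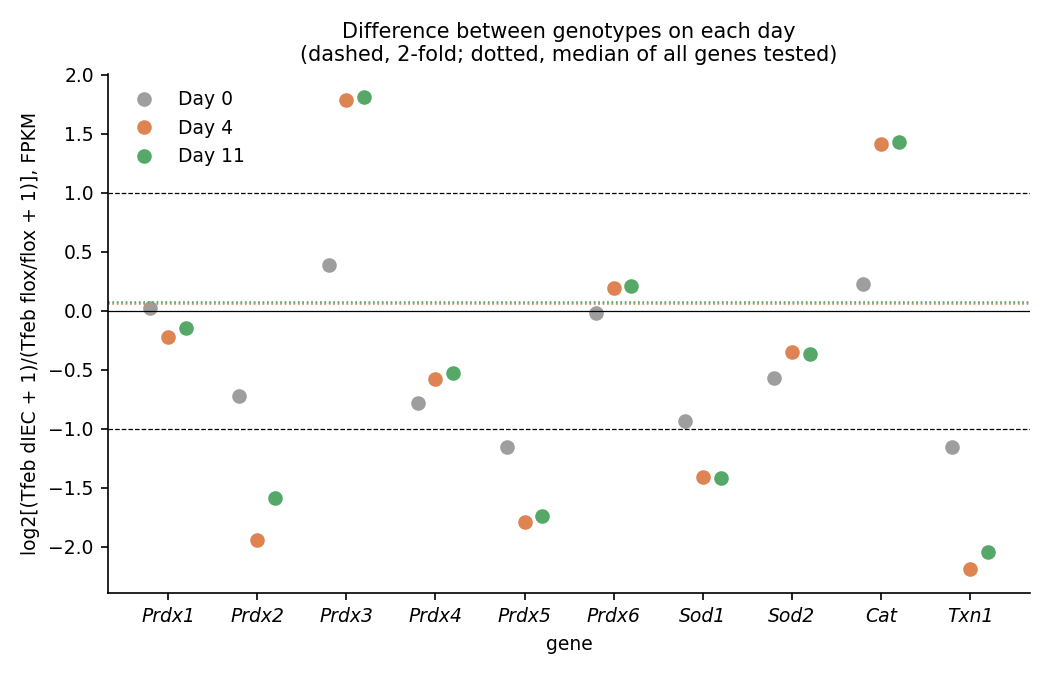
Log2 ratio of Tfeb dIEC to Tfeb flox/flox FPKM, each plus 1, for the 10 genes on Day 0 (grey), Day 4 (orange) and Day 11 (green), 1 pooled value per point; dashed lines mark 2-fold and dotted lines the median of all genes tested (0.06, 0.06 and 0.08). Differences run from -1.15 to 0.39 on Day 0 and from -2.19 to 1.78 on Day 4, and the points of Days 4 and 11 lie close together.

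Read across days, the members' values differed more in control than in Tfeb dIEC animals, and so did those of all genes. Between Day 0 and Day 4 the median size of the change over the 10 genes was 1.21 on the log2 scale in control and 0.38 in Tfeb dIEC animals, where that of all genes was 0.85 and 0.53. In Tfeb flox/flox animals 3 members (Prdx2, Prdx5 and Txn1) were at least 2-fold higher on Day 4 and 3 (Prdx3, Prdx4 and Cat) at least 2-fold lower, where 17.5% of 9617 genes were higher and 25.7% lower. In Tfeb dIEC animals none was 2-fold higher and Prdx4 alone was 2-fold lower, where 9.26% of genes were higher and 15.6% lower. Each day was scaled on its own, so these are levels set side by side. Between Days 4 and 11 the largest change was 1.51-fold, for Prdx2 in Tfeb flox/flox animals.

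By the genes' own rows, the order of the levels, which are per length, was nearly fixed. Prdx6 and Txn1 came first in all 6 groups, Sod1 and Prdx5 held the next places in 5 of them, and Prdx4 or Cat was the lowest. In Tfeb dIEC animals on Day 0, Prdx1 (106 FPKM) and Prdx5 (101 FPKM) were close neighbours and Prdx1 took the fourth place. The order changed with the copies added: Prdx1 then stood above Prdx5 in 4 of the 6 groups (353 and 226 FPKM in control animals on Day 0), and Txn1 above Prdx6 in control animals on Days 4 and 11 (6359 and 5203 on Day 4). Together the 10 genes summed to 5589 FPKM in control and 4575 in Tfeb dIEC animals on Day 0, and to 11467 and 7562 on Day 4, with Txn1 at 42.7% and 14.2% of the Day 4 sums. Without a spread between animals, whether neighbours in the order differ could not be tested.

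The difference between genotypes moved with transcript length over all genes. On Day 4 the median log2 difference was -1.83 in the genes with transcripts of 204 to 501 nt and 0.65 in those of 2843 to 3492 nt, and on Day 0 it was -1.06 in the genes of 203 to 529 nt. With the running median over length subtracted, 20.8% of genes were lower and 20.1% higher on Day 4. The members at least 2-fold lower were then Txn1 and Prdx2 on Days 4 and 11, and Prdx3 and Cat were higher. On Day 0 Sod2 alone was lower, and without it, since its length is uncertain, the count was 0. Prdx5 and Sod1 were then within 2-fold on each day, as was Txn1 on Day 0 (-0.84). Cat was placed at 1696 nt, the median of its 2 basic transcripts of 779 and 2613 nt. On Day 4 the running median was 0.20 at that length, -1.04 at 775 nt and 0.71 at 2659 nt. The size of the Cat difference in this setting, and so its place past 2-fold, is uncertain. Prdx1, Prdx5 and Prdx6 also have transcripts of unlike length.

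**Figure D3:**
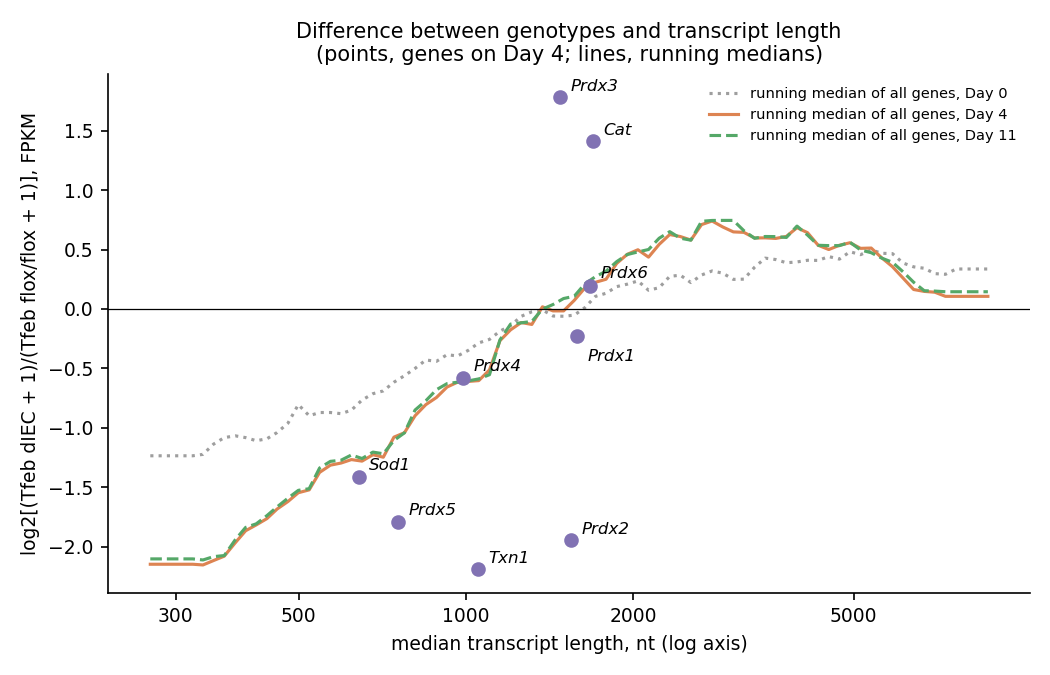
Log2 ratio of Tfeb dIEC to Tfeb flox/flox FPKM, each plus 1, against median transcript length (log axis); points are the members on Day 4 without Sod2, and lines are the running median over 401 genes on Day 0 (dotted), Day 4 (solid) and Day 11 (dashed). Sod1, Prdx4 and Prdx6 lie within 0.2 of the Day 4 line, Prdx2 and Txn1 well under it, and Prdx3 and Cat well above it. Prdx1, Prdx5, Prdx6 and Cat are placed at the median of transcripts of unlike length, so their distance from the line is uncertain.

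Scaling also moved the counts. Dividing each group by its summed FPKM raised the median of all genes to 0.66 on Day 4 and 0.68 on Day 11, with 15.2% of genes lower and 40.5% higher on Day 4 and 14.9% lower and 41.0% higher on Day 11. The members' median changed sign with it, to 0.28 on Day 4 and 0.29 on Day 11, and stayed under that of all genes. On that scale Prdx2 (-1.11) and Txn1 (-1.36) were lower by at least 2-fold on Day 4, Prdx5 (-0.96) and Sod1 (-0.58) were not, Prdx3 (2.58) and Cat (2.12) were higher, and Prdx6 (1.03) joined them. On Day 11 Txn1 (-1.21) alone was lower, with Prdx2 at -0.76. Txn1, Prdx2, Prdx3 and Cat kept their direction on Days 4 and 11 under division by the sums, centring and subtraction of the length trend, as did Txn1 and Prdx2 with their copies added.

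The summed markers of other epithelial cells also differed. The 5 goblet cell markers summed to 15134 FPKM in control and 9728 in Tfeb dIEC animals on Day 0. On Day 4 they summed to 66209 and 12896, with 3 of 5 at least 2-fold lower and 2 of 5 higher (all genes, 26.1% and 25.6%). Most of the Day 4 sums came from Zg16 (34794 and 7393 FPKM) and Tff3 (28759 and 2166), with transcripts of 659 and 493 nt. The running median of all genes that day was -1.28 at 650 nt and -1.55 at 499 nt. Muc2 (645 and 1894) and Clca1 (432 and 1298) were higher in Tfeb dIEC animals. The 5 colonocyte markers summed to 41495 and 26948 FPKM on Day 0, with 3 of 5 lower and none higher (all genes, 16.1% and 13.5%). On Day 4 they summed to 58285 and 36303, with 1 of 5 lower and 2 of 5 higher (all genes, 26.1% and 25.6%). Of the 7 general epithelial markers, none was lower and 3 were higher on Day 4 (all genes, 26.1% and 25.6%). The part of these cells in the members' values was not tested.

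Other redox genes were found on both sides. Of 58 further genes in 6 lists, 45 passed the filter on Day 4, and 10 were at least 2-fold lower and 12 higher in Tfeb dIEC animals, against 4 lower and 5 higher of 44 on Day 0 and 10 lower and 13 higher of 45 on Day 11. Set against all genes (26.1% lower and 25.6% higher on Day 4, 16.1% and 13.5% on Day 0, 25.7% and 26.1% on Day 11), these counts were near or below the background. In the glutathione system 5 of 12 genes were lower and 1 higher on Day 4, with a median of -0.86, where 26.1% of all genes were lower. With the length trend subtracted the median was -0.31 and 4 of 12 were lower (Gpx4, Gclc, Gclm and Glrx5) and 1 higher (Gss), where 20.8% of all genes were lower and 20.1% higher, with Gpx4 at -1.13, Gpx1 at -0.32 and Gpx7 at -0.14. The glutathione peroxidases, which remove peroxides with glutathione, made up 3 of the 5 genes that were lower without this subtraction. These were Gpx1 (1152 FPKM in control and 475 in Tfeb dIEC animals), Gpx4, which acts on lipid peroxides (80.9 and 23.4), and Gpx7 (1.06 and listed at 0). Gpx2, the epithelial form, had 1637 and 895 FPKM on Day 4, a log2 difference of -0.87. Glrx5, a mitochondrial glutaredoxin, had 13.9 and 3.53 FPKM.

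In the list of the NRF2 pathway and NADPH supply, none of 8 genes was lower and 5 were higher on Day 4, with a median of 1.08, where 25.6% of all genes were higher, and 1 of 8 was higher on Day 0. The higher genes on Day 4 were Nfe2l2, Tkt, Idh1, Pgd and G6pdx. Nqo1 differed by 0.64, short of 2-fold, and Hmox1, Slc7a11 and Me1 were under 1 FPKM in both genotypes. The activity of NRF2 was not tested. With the length trend subtracted, 1 of the 8 was lower (Keap1 at -1.03, a sensor that holds NRF2 in check) and 3 were higher (Idh1, Nfe2l2 and Pgd), with a median of 0.55, where 20.8% of all genes were lower and 20.1% higher. Idh1, a cytosolic isocitrate dehydrogenase that makes NADPH, had 4.54 FPKM in control and 105 in Tfeb dIEC animals on Day 4, against 69.0 and 106 on Day 0. Nfe2l2, which encodes the antioxidant regulator NRF2, had 12.4 and 50.2 FPKM on Day 4, a log2 difference of 1.93, and Pgd of the pentose phosphate pathway had 46.0 and 161. Taldo1 of the same pathway was nearly level at 177 and 147 FPKM. As for Prdx3 and Cat, the low values of Idh1 and Nfe2l2 were those of the controls on Days 4 and 11.

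In the thioredoxin system 1 of 10 genes was lower and 2 were higher on Day 4 (all genes, 26.1% and 25.6%), with a median of -0.07, or -0.37 with the length trend subtracted, and 3 of 10 were lower on Day 0 (all genes, 16.1%). Txnip, which binds and inhibits thioredoxin, had 6.65 FPKM in control and 104 in Tfeb dIEC animals on Day 4, opposite to Txn1, and 40.4 and 56.1 on Day 0. Txnrd2, the mitochondrial thioredoxin reductase, had 772 and 246 FPKM on Day 0 and 8.82 and 7.20 on Day 4. Txnrd3 was listed at 513 and 0.814 FPKM on Day 0 and at 0 and 397 on Day 4. The values of Txnrd3 went in opposite directions on Days 0 and 4, and Txnrd1, the cytosolic reductase, was listed at 0 in both genotypes on every day.

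The partners of the superoxide dismutases held 1 lower and 1 higher gene among 3 on Day 4 (all genes, 26.1% and 25.6%), with a median of -0.74. With the length trend subtracted, 1 was lower and none higher, with a median of -0.09. Atox1, a copper chaperone, had 295 FPKM in control and 31.4 in Tfeb dIEC animals, a log2 difference of -3.19, or -1.81 with the length trend subtracted, whereas Ccs, which loads copper into Sod1, had 20.1 and 11.6. Slc31a1, the copper importer, was higher at 2.70 and 9.43. Among the genes that repair oxidised methionine and other proteins, 3 of 4 were lower and 1 higher (all genes, 26.1% and 25.6%), with a median of -1.96, or 2 of 4 lower and 1 higher (all genes, 20.8% and 20.1%) and a median of -1.30 with the length trend subtracted. Park7 had 85.1 and 31.4 FPKM, a difference that came to -0.70 in that setting, and Msra had 4.80 and 12.5, while Msrb2 and Msrb1 were at 9.78 and 4.66 in Tfeb flox/flox animals and listed at 0 in Tfeb dIEC animals. On Day 0 none of the 4 was lower and 2 were higher (all genes, 16.1% and 13.5%), with a median of 0.76. The higher ones were Msrb2 (0.432 and 3.74 FPKM) and Msrb1 (listed at 0 and 2.44), so both went in opposite directions on Days 0 and 4. Among the sources of superoxide and peroxide, none of 8 was lower and 2 were higher on Day 4 (all genes, 26.1% and 25.6%), Xdh and Duox2, both under 3 FPKM, with a median of 0.29, whereas 2 were lower and none higher with the length trend subtracted. Cyba, a subunit of the NADPH oxidases, had 265 and 133 FPKM, and Noxo1, an organiser of the epithelial oxidase, 88.7 and 54.4. With the length trend subtracted Cyba turned to 0.26, and the 2 lower genes were Noxo1 (-1.25) and Rac1 (-1.12).

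**Figure D4:**
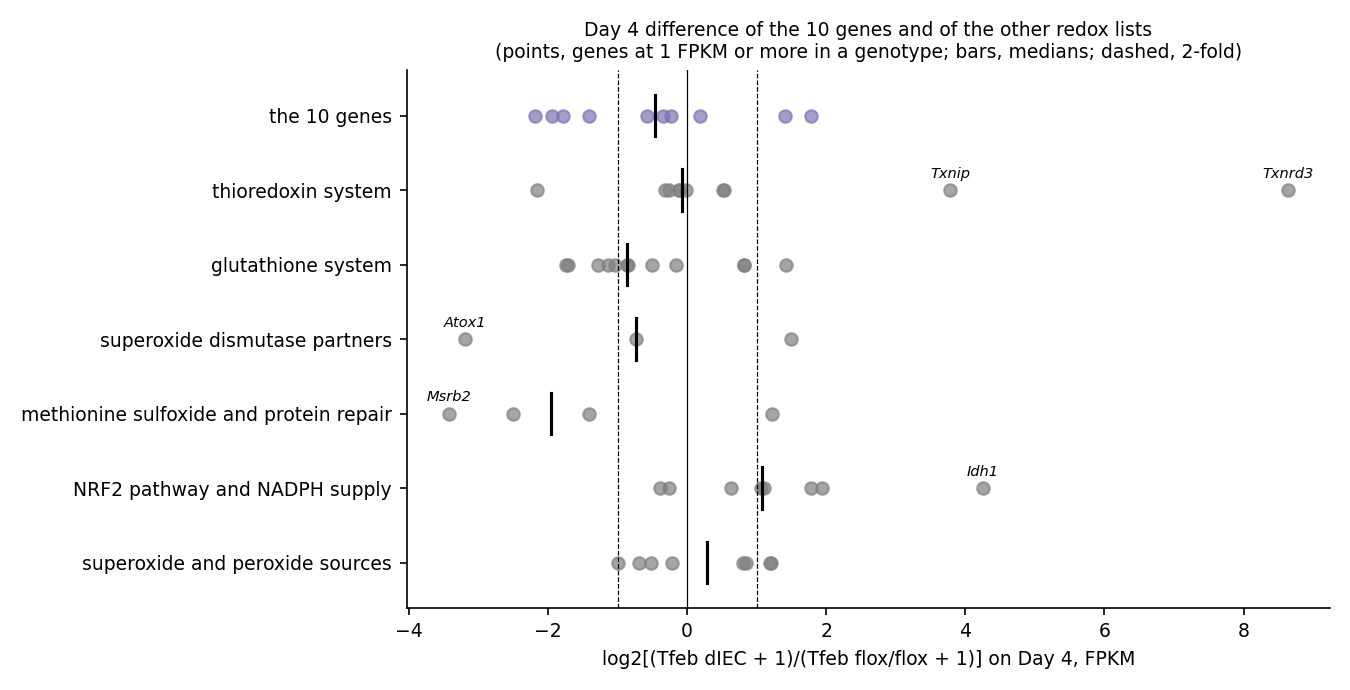
Log2 ratio of Tfeb dIEC to Tfeb flox/flox FPKM, each plus 1, on Day 4 for the 10 genes (purple) and for the 6 other redox lists (grey); each point is a gene at 1 FPKM or more in a genotype, bars are medians and dashed lines mark 2-fold. The glutathione list has a median of -0.86 and the NRF2 and NADPH list of 1.08 (-0.31 and 0.55 with the length trend subtracted); Txnrd3, Msrb2, Msrb1 and Gpx7 were listed at 0 in 1 genotype, so the pseudocount sets their place.

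The genes whose 3 differences lay nearest to the members' medians, among 2614 genes at 10 FPKM or more in either genotype on every day, were Ube2c, Psma6, Mrps18a, Slc22a18 and Ucp2, at Euclidean distances of 0.03 to 0.15 on the log2 scale. Ube2c, the nearest, differed by -0.65 on Day 0, -0.50 on Day 4 and -0.45 on Day 11.

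The promoters were searched for the letters bound by TFEB and by NRF2, from 250 bases before to 50 after the start (RefSeq, GRCm38.p6), and 9 of the 10 genes had a sequence: Prdx6 did not. The E-box CACGTG, the same on both strands, was present in 1 of the 9 members and in 7.15% of 32851 promoters. The longer GTCACGTG of lysosomal genes, which contains that E-box and was searched on both strands, was present in none of the 9 and in 2.25% of promoters. The core of the antioxidant response element, TGACNNNGC on either strand, was present in 2 of the 9 and in 12.4% of promoters. The 3 matches are shown with their flanks, 5′ to 3′ on the strand of the gene, with the matched letters in capitals, and the antioxidant matches read as the reverse complement.
Prdx4, chrX:155338497-155338522, minus strand: agcttgcgccCACGTGgcggaggggc
Prdx1, chr4:116685456-116685484, plus strand: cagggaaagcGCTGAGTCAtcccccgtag
Sod1, chr16:90220696-90220724, plus strand: gccaaggtggGCGTGGTCAgactcaggcc
The first matched base lay 52 bases before the start in Prdx4, 133 in Prdx1 and 56 in Sod1. Of the 6 members past 2-fold on Day 4, Sod1 alone held any of the letters searched.

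The genes lie apart in the genome, on mm10 coordinates of GENCODE M21 counted from 1. Prdx1 (ENSMUSG00000028691.12) is at chr4:116685544-116700822 on the plus strand and Txn1 (ENSMUSG00000028367.5) at chr4:57943373-57956411 on the minus strand. Prdx3 (ENSMUSG00000024997.7) is at chr19:60864051-60874556 and Prdx5 (ENSMUSG00000024953.16 in the tables, a later version in M21) at chr19:6906697-6910106, both on the minus strand. Prdx2 (ENSMUSG00000005161.15) is at chr8:84969587-84974834 on the plus strand, and the tables place it in a locus with Rnaseh2a from 84956610. Cat (ENSMUSG00000027187.10) is at chr2:103453849-103485160, Prdx4 (ENSMUSG00000025289.15) at chrX:155323918-155340754 and Prdx6 (ENSMUSG00000026701.15) at chr1:161240112-161251219, all on the minus strand. By the loci of the tables, Sod1 (ENSMUSG00000022982.9) is at chr16:90220742-90226322 and Sod2 (ENSMUSG00000006818.4) at chr17:13007839-13018119, both on the plus strand. Reads were counted over the exons of these genes, and no 2 of the 10 overlap.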

How the data were processed

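RNA-seq of colonic epithelial cells was used for 6 groups of 2 animals, and the labels gave genotype and day. Per the methods, cDNA was made by a form of SmartSeq2 and sequenced in pairs on a MiSeq; the authors aligned it to mm10 by TopHat2 2.0.14 with Bowtie and ran Cuffdiff 2.1.1 (versions from the submitters' processing notes). The 3 deposited tables hold 1 FPKM per gene and genotype, pooled over both animals and scaled within a day. Their columns of fold changes, test statistics, p-values and q-values, which are the authors' comparisons, were not used, so no variation between animals enters.

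Log2 differences used a pseudocount of 1 FPKM and a filter of 1 FPKM in either genotype. Where a symbol had several identifiers, that with the highest sum was kept. Transcript length is the median over the basic transcripts of GENCODE M21, and length trends used a window of 401 genes of at least 200 nt. The fragments behind a value were estimated from the lowest step of FPKM times length, less about 235 nt. The steps are uneven, by 3.44% to 25.5% of a step (interquartile range), so these numbers are rough. Total reads per sample were not used here. Uniqueness was the share of 50-base sequences in no other gene.

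The members and lists were chosen with earlier results of these data known. The 6 further lists are the thioredoxin system, glutathione system, superoxide dismutase partners, methionine sulfoxide and protein repair, NRF2 pathway and NADPH supply, and superoxide and peroxide sources. Marker lists were epithelial, colonocyte, goblet, immune, stromal and endothelial, and erythroid, of which 1 gene is not reported here. Named were all members, Tfeb, markers, from each further list the 2 genes of highest mean FPKM and the 2 of largest difference on Day 4, and the 5 genes nearest to the members' medians. Txnrd1, Gpx7, Keap1, Gclc, Gclm, Gss, Rac1, Nqo1, Tkt, G6pdx, Hmox1, Slc7a11 and Me1, and genes that copy or overlap a member, were named after their values were seen. Alternatives were the pseudocount, the filter, scaling, centring, length and the fold. Computations ran in Python 3.11.15 (scipy 1.17.1, numpy 2.4.6, pandas 2.3.3, matplotlib 3.10.9) and were tested on simulated data.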

Additional observations from a re-analysis of the deposited data

How the results depend on the processing

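The values are pooled over animals, so no animal was left out and no variation is known. No paired analysis was possible because each table holds 1 pooled value per genotype and day. Estimated fragments of 9 to 12 limit Prdx4 and Cat on Day 4. On Day 0 the count of lower genes was 2, and it was 1 (Sod2) with the length trend subtracted and 0 with Sod2 left out there (all genes, 11.5%), 5 at 1.5-fold (25.6%), and 0 at 4-fold (3.35%). On Days 4 and 11 the count of 4 lower genes was 2 on both days with the length trend subtracted, with or without Sod2 (20.8% of all genes on Day 4), 2 and 1 after division by the sum (15.2% and 14.9%), and 1 on both at 4-fold (10.3% and 10.2%). The count of 2 higher genes on both days was 1 with a pseudocount of 5 (9.33% and 9.28%) and 0 at 4-fold (7.36% and 7.46%).

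The members' median on Days 0, 4 and 11 was -0.66, -0.52 and -0.50 with a pseudocount of 0.1, -0.54, -0.32 and -0.31 with a pseudocount of 5, -0.71, -0.52 and -0.53 when centred, and -0.28, -0.23 and -0.22 with the length trend subtracted. Leaving out Sod2, whose length is uncertain, gave -0.15, -0.16 and -0.19 in that setting. At 10 FPKM or more, which left out Prdx4 on the later days, it was -0.35 and -0.37 on Days 4 and 11. Division by the sum turned it to 0.28 and 0.29, and the cause is the ratio of the groups' sums. The setting without Sod2, the length trend for the other redox lists and 2 others were added after the data were seen. With the copies summed, the median on Day 0 was -0.63. With the 7 genes whose model version is the same in the tables and GENCODE M21, 1 gene was lower on Day 0 and 2 on Days 4 and 11 (all genes, 16.1%, 26.1% and 25.7%), the count of higher genes stayed at 2 on the later days, and the medians were -0.019, -0.23 and -0.15. Every other setting left the counts within 1.5 times and the medians equal to 2 decimals.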
